A study of Homo sapiens with 8 samples.

Results

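The genes examined here are SREBF2, INSIG1, HMGCS1, IDI1, FDFT1, SQLE and LSS, which stand for cholesterol synthesis and its control by SREBP2. They were chosen by symbol, and all 7 were found among the 17076 genes of the deposited tables, each with a value in all 8 libraries. The mRNA of Huh7, an established human liver cancer line, was sequenced in 4 groups with 2 libraries each. The siControl cells were transfected with a scrambled siRNA and the siUPF1 cells with an siRNA against UPF1. The MYC cells received a control plasmid that carries the MYC epitope tag, which is not the MYC oncogene, and the MYC-UPF1 cells received a plasmid for MYC-tagged UPF1. UPF1 is an RNA helicase of nonsense-mediated mRNA decay, and the study compared the transcriptome after its depletion and after its overexpression. All groups are the same line, and the time from transfection to harvest and whether the 2 libraries of a group are separate cultures are not given in the sources used here, so p-values measure only the spread between these libraries.

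Cells make cholesterol from acetyl-CoA through mevalonate, isoprenoids, squalene and lanosterol. SREBP2, the product of SREBF2, is a membrane-bound transcription factor that is held in the endoplasmic reticulum by SCAP and INSIG proteins when sterols are plentiful. When sterols fall it is cut free in the Golgi and switches on genes of the pathway, its own gene and INSIG1 among them, so that their mRNAs commonly serve as a readout of the sterol state of a liver cell. HMGCS1 makes HMG-CoA near the start of the pathway, and IDI1 interconverts the basic isoprenoid units. FDFT1 joins farnesyl units to squalene, SQLE oxidises squalene, and LSS closes the rings to give lanosterol.

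SREBP2 acts through sterol regulatory elements close to a gene's start, often beside CCAAT boxes and GC boxes bound by NF-Y and Sp1, and the promoters were therefore read for these letters. RefSeq promoter sequences, which run from 250 bases before to 50 bases after a start, were at hand for 5 of the 7 genes with 8 start sites, namely SREBF2, INSIG1, HMGCS1, IDI1 and LSS. The stretches at positions -180 to -81 from the start were located on GRCh37, also called hg19, by exact match. They lie at chr22:42228929-42229028 on the plus strand for SREBF2, chr7:155089408-155089507 on the plus strand for INSIG1, chr5:43313595-43313694 on the minus strand for the first of the 2 starts of HMGCS1, chr10:1095140-1095239 on the minus strand for the second of the 3 starts of IDI1, and chr21:47648769-47648868 on the minus strand for LSS. They are printed because they hold the matches shared by these genes, on each gene's own strand from 5′ to 3′, with capitals for the letters TCACNCCA and for ATTGG, which is CCAAT read on the other strand.
SREBF2: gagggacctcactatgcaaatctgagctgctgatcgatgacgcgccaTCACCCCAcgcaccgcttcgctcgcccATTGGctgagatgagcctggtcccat
INSIG1: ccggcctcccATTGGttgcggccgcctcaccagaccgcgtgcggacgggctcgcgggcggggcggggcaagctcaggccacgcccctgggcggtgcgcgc
HMGCS1: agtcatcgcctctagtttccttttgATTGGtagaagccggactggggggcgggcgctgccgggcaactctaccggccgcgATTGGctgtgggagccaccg
IDI1: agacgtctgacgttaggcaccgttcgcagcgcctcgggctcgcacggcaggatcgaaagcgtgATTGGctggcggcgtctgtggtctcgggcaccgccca
LSS: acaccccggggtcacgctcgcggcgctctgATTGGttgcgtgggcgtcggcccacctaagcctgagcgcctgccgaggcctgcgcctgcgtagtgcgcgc

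A sterol regulatory element with the letters TCACCCCAC was found in 1 of the 8 start sites, in SREBF2 at position -133, with -1 as the last base before the start. It was present in 0.430% of the 35116 promoters of the table, and the looser form TCACNCCA, which covers the same match, in 3.95%. The letters ATTGG, on either strand, were found at 6 of the 8 start sites and in all 5 genes, against 34.6% of promoters. In SREBF2 they follow the sterol element at position -106. The GC box GGGCGG, on either strand, was present at 8 of 8 start sites and in 45.0% of promoters, and the E-box CACGTG at 2 of 8, in INSIG1 and LSS, against 7.26%. These are matches of letters only, and none of the 3 comparisons below was tested against them. Only these letters within the window read were searched, so a start without a match is not shown to lack a sterol element.

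The 7 genes were among the more abundant mRNAs in Huh7 cells. Levels are given in FPKM, fragments scaled for the length of the transcript and the size of the library, so that genes of different length can be compared. Averaged over the 8 libraries, HMGCS1 had the highest level at 131 FPKM, above 97.6% of genes, and INSIG1 the lowest at 38.1 FPKM, above 90.6% of genes. FDFT1 at 66.5, SQLE at 50.3, IDI1 at 48.8, SREBF2 at 44.01 and LSS at 39.5 FPKM lay between them. Hepatocyte markers were present in every library, with ALB at 6550 to 8371 FPKM and AFP at 11093 to 12505 FPKM. Of the 6 fibroblast markers 3 were in the tables, and their sum was 1.24 to 1.90 FPKM. Of the 5 endothelial markers only PECAM1 was in the tables, and it stayed at 0.535 to 0.796 FPKM. Among leukocyte markers, LYZ stood at 160 to 227 FPKM, whereas CD68 and CD14 were under 4 FPKM and PTPRC and CD3E were not in the tables.

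**Figure D1:**
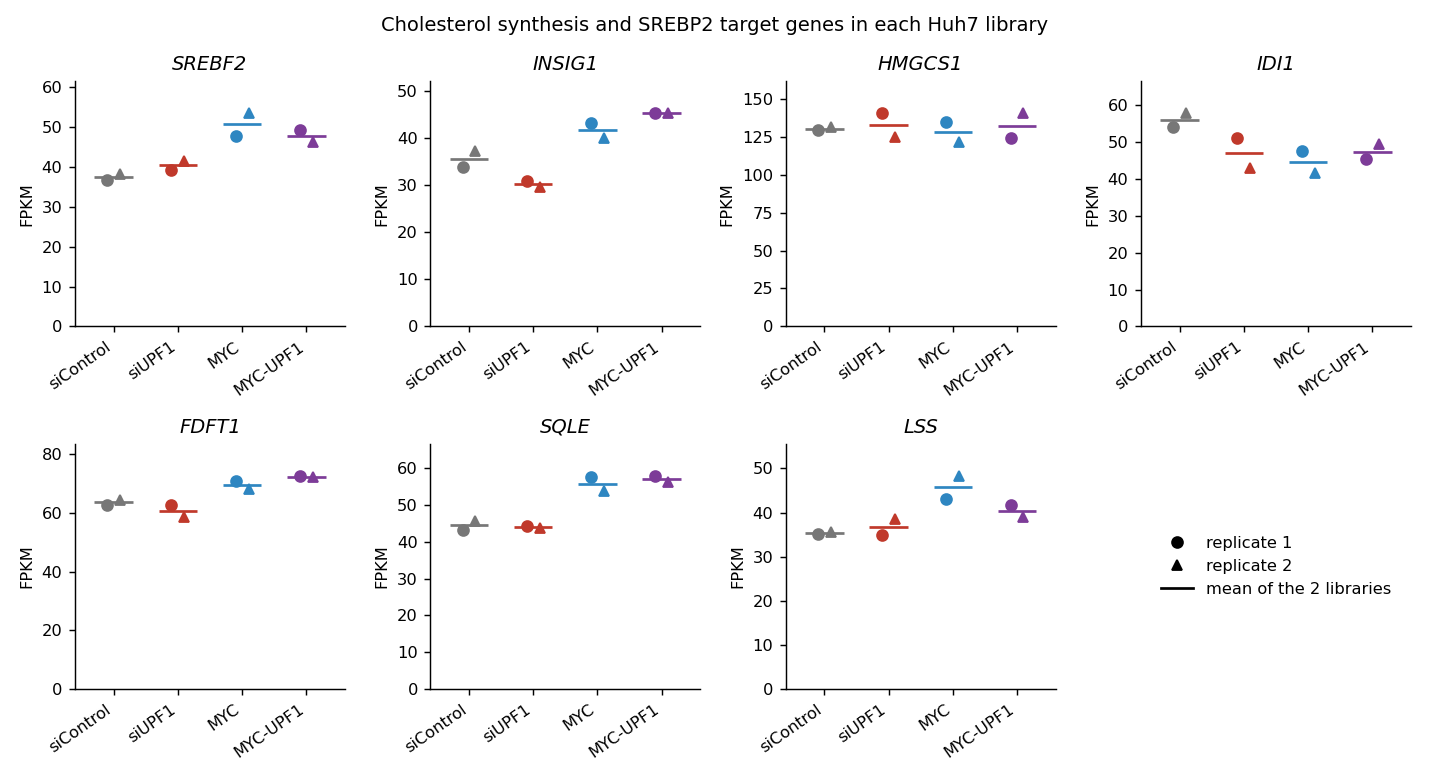
FPKM of each of the 7 genes in the 8 libraries, by group, with a circle for replicate 1, a triangle for replicate 2 and a line for the mean of the 2 libraries. INSIG1 and FDFT1 have their 4 groups in the order siUPF1, siControl, MYC, MYC-UPF1 with no overlap between groups, whereas the groups of HMGCS1 overlap. For FDFT1 siUPF1 replicate 1 at 62.75 FPKM nearly meets siControl replicate 1 at 62.79 FPKM. The order spans 2 experiments, and the share of all genes with such an order was not computed.

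The targeted gene followed the labels. UPF1 was at 44.5 and 47.4 FPKM in siControl and at 20.7 and 21.9 FPKM in siUPF1, which gave -1.07 ± 0.093 (log2 fold change ± SE; limma, adjusted p = 0.0308). In MYC-UPF1 it reached 2835 and 2484 FPKM against 45.1 and 57.4 FPKM in MYC, which gave 5.68 ± 0.11 (limma, adjusted p = 8.91e-09). All fold changes below are differences of log2(FPKM + 1) with their standard error. An unadjusted p of 0.05 is set beside a Benjamini-Hochberg adjusted p over all genes tested. Depth is unknown because the files hold no counts, and an exact permutation test of 2 libraries against 2 cannot give a two-sided p below 0.333.

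In UPF1-depleted cells the cholesterol genes changed little. INSIG1, the sterol-dependent anchor of SREBP2, was at 33.9 and 37.2 FPKM in siControl and at 30.7 and 29.5 FPKM in siUPF1. Both depleted libraries lay below both controls, and in such bulk libraries fewer cells with the mRNA and less mRNA per cell cannot be told apart. The log2 fold change was -0.23 ± 0.095 (limma, unadjusted p = 0.0470, adjusted p = 0.229), so INSIG1 passed the unadjusted threshold and not the adjusted one. With any library left out the fold change stayed negative. It was -0.30 without the siControl replicate 1, -0.16 without the siControl replicate 2 and -0.20 without the siUPF1 replicate 2. Whether the call holds in these fits cannot be judged, because the group left with 1 library takes its spread from the other. SREBF2 itself was at 36.6 and 38.1 FPKM in siControl and at 39.2 and 41.6 FPKM in siUPF1. The depleted libraries were both higher, but by less than the test could separate, with a log2 fold change of 0.11 ± 0.091 (limma, unadjusted p = 0.272, adjusted p = 0.4999).

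The enzymes showed no call upon depletion. IDI1 was at 54.1 and 57.9 FPKM in siControl and at 51.2 and 43.1 FPKM in siUPF1, where replicate 2 was the lower. Its log2 fold change of -0.25 ± 0.11 was as large as that of INSIG1 but did not pass (limma, unadjusted p = 0.0634, adjusted p = 0.256). It was -0.37 without the siUPF1 replicate 1 and -0.13 without the siUPF1 replicate 2. FDFT1 was at 62.8 and 64.5 FPKM in siControl and at 62.8 and 58.7 FPKM in siUPF1, with its depleted libraries just below the controls. HMGCS1 was at 129 and 131 FPKM in siControl and at 140 and 125 FPKM in siUPF1, so that the depleted libraries lay on either side of the controls. SQLE, the squalene epoxidase, was at 43.3 and 45.5 against 44.3 and 43.7 FPKM, and LSS at 35.1 and 35.5 against 34.8 and 38.6 FPKM. The log2 fold changes of these 4 enzymes lay between -0.068 and 0.054, and the widest of their 95% intervals, that of HMGCS1, ran from -0.21 to 0.26.

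Counted over the list, 0 of 7 genes rose and 1 fell at an unadjusted p of 0.05 in limma, beside 16.0% of all 13535 genes tested that rose and 5.51% that fell. None passed the adjusted threshold, which 0.0369% of all genes did. The 2 groups did not overlap in 4 of 7 genes, 1 higher and 3 lower, against 37.5% higher and 18.5% lower over all genes. The median log2 fold change was -0.011 for the 7 genes and 0.057 for all genes. Of the genes called in the whole table, 2162 rose and 746 fell, a split that became 1417 and 1408 after quantile normalization and 1602 and 1271 after median centring.

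UPF1 overexpression left all 7 genes without a call. SREBF2 was at 47.8 and 53.4 FPKM in MYC and at 49.3 and 46.2 FPKM in MYC-UPF1. INSIG1 was at 43.1 and 40.0 FPKM in MYC and at 45.2 FPKM in both MYC-UPF1 libraries, which were thus higher than both controls. The log2 fold change of INSIG1 was 0.12 ± 0.086 (limma, unadjusted p = 0.193, adjusted p = 1.00). LSS showed the largest difference of the list, with 43.1 and 48.3 FPKM in MYC and 41.7 and 39.1 FPKM in MYC-UPF1. Both overexpressing libraries were lower, and the log2 fold change of LSS was -0.17 ± 0.093 (limma, unadjusted p = 0.0947, adjusted p = 1.00). Without the MYC replicate 1 it was -0.25, and without the MYC replicate 2 it was -0.092.

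The other 4 enzymes moved by less upon overexpression. HMGCS1 was at 135 and 122 FPKM in MYC and at 124 and 140 FPKM in MYC-UPF1, and the groups overlapped. IDI1 was at 47.7 and 41.7 against 45.4 and 49.4 FPKM, also with overlap. FDFT1 was at 70.7 and 68.0 FPKM in MYC and at 72.6 and 72.1 FPKM in MYC-UPF1, a small rise in both libraries that gave a log2 fold change of 0.060 ± 0.078 (limma, unadjusted p = 0.458). SQLE was at 57.6 and 53.8 against 57.9 and 56.2 FPKM. The 95% intervals of the 7 genes lay within -0.38 to 0.31 on the log2 scale. In limma 0 of 7 genes passed an unadjusted p of 0.05, beside 0.619% of all 13251 genes that rose and 0.807% that fell, and none passed the adjusted threshold, which 0.00755% did. The groups did not overlap in 2 genes that were higher and 1 that was lower, against 8.88% and 11.8% of all genes.

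The fold change of INSIG1 was below 0 upon depletion and, without a call, above 0 upon overexpression. The difference of the effects, depletion minus overexpression, was tested for each gene in a single limma fit of all 8 libraries, in which the 2 treatments have separate controls. For INSIG1 it was -0.35 ± 0.12 (limma, unadjusted p = 0.0172, adjusted p = 0.241), and for IDI1 -0.33 ± 0.15 (limma, unadjusted p = 0.0563, adjusted p = 0.342). The call for INSIG1 was lost without the siControl replicate 2, at -0.28 (limma, unadjusted p = 0.0887), and without the MYC replicate 2, at -0.30 (limma, unadjusted p = 0.0579). SREBF2 at 0.19 and LSS at 0.23 were on the other side of 0, and FDFT1, SQLE and HMGCS1 lay between -0.13 and -0.019, all without a call. Of the 7 genes 1 passed the unadjusted threshold, beside 15.2% of all 13412 genes, and 0 the adjusted one, beside 0.0224%. Over all genes 1585 differences above 0 and 456 below 0 were called, and 1024 and 907 after quantile normalization.

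**Figure D2:**
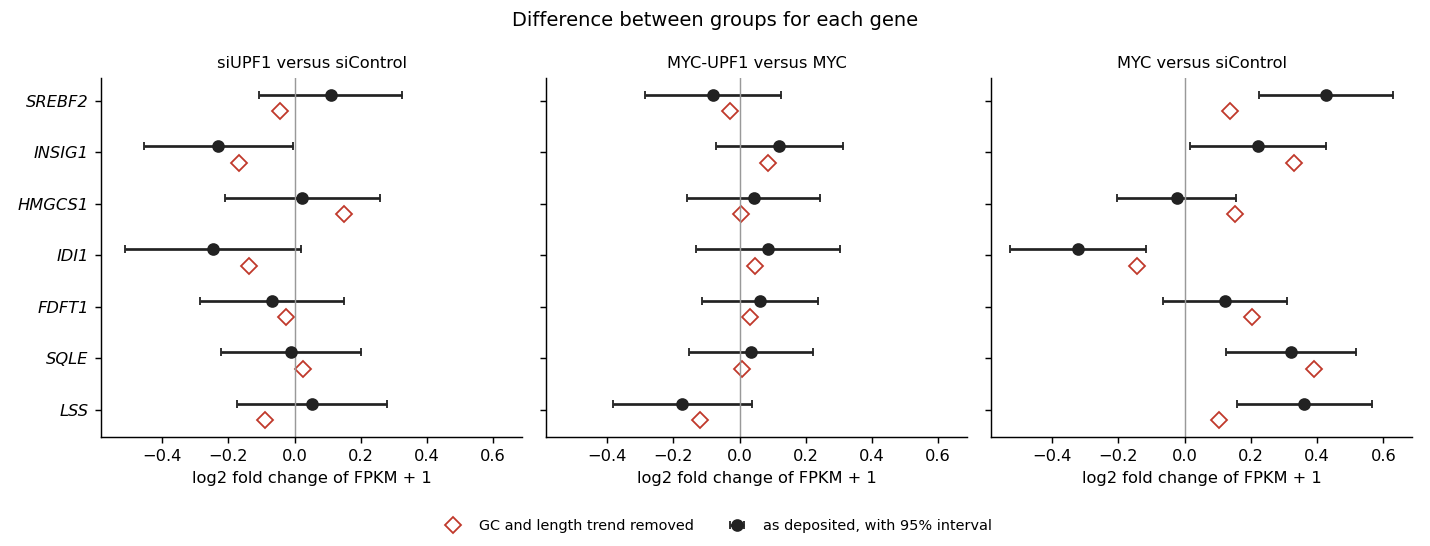
Log2 fold change of FPKM + 1 for each gene in the 3 comparisons, as black points with the 95% interval of the limma fit, and as open red diamonds after the trend of each library with transcript GC content and length was removed. In the panels for UPF1 the intervals include 0 except that of INSIG1 upon depletion, whereas the panel of MYC against siControl has SREBF2, SQLE, LSS and INSIG1 above 0 and IDI1 below 0.

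The largest differences seen in these genes, up to 0.43 on the log2 scale, were between the 2 control groups. SREBF2 was at 47.8 and 53.4 FPKM in the MYC plasmid control, above 36.6 and 38.1 FPKM in siControl, with a log2 difference of 0.43 ± 0.098 (limma, adjusted p = 0.00320). SQLE rose from 44.4 ± 1.55 to 55.7 ± 2.65 FPKM (mean ± SD of 2 libraries), by 0.32 ± 0.095 on the log2 scale (limma, adjusted p = 0.0154). LSS rose from 35.3 ± 0.254 to 45.7 ± 3.70 FPKM, by 0.36 ± 0.098 (limma, adjusted p = 0.00971). The libraries of the 2 controls did not overlap in any of these 3 genes, as in 25.6% of all genes that were higher in MYC and 41.3% that were lower. With the trend of each library with transcript GC content and length removed, SREBF2 came to 0.14 and LSS to 0.10 and neither passed the unadjusted threshold, while SQLE stayed at 0.39. INSIG1, at 41.6 ± 2.15 against 35.5 ± 2.36 FPKM, passed only the unadjusted threshold (0.22 ± 0.099; limma, unadjusted p = 0.0356, adjusted p = 0.0953).

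IDI1 was the only one of the 7 genes that was lower in both MYC libraries than in both siControl libraries. It was at 47.7 and 41.7 FPKM in MYC, below 54.1 and 57.9 FPKM in siControl, with a log2 difference of -0.32 ± 0.098 (limma, adjusted p = 0.0194), which came to -0.14 and lost its call with the GC and length trend removed. FDFT1, located on GRCh37 at chr8:11653082-11696904, was higher in both MYC libraries without a call (0.12 ± 0.091; limma, unadjusted p = 0.194), and HMGCS1 overlapped between the groups (-0.024 ± 0.087). In all, 3 of 7 genes rose and 1 fell at the adjusted threshold, beside 10.8% of all 13359 genes that rose and 18.3% that fell, and 4 rose and 1 fell at the unadjusted one, beside 15.4% and 25.6%. The median log2 fold change was 0.22 for the 7 genes and -0.057 for all genes. At the unadjusted threshold 2052 genes of the table rose and 3416 fell, which became 2763 and 2709 after quantile normalization and 3180 and 2276 after median centring. With 1 library left in a control group the spread came from the other group alone, so calls are not compared in those fits. With any 1 library left out, SREBF2 lay between 0.35 and 0.51 and LSS between 0.28 and 0.44.

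A plasmid and an siRNA differ in kind, and the transfected material and anything else that differed between the 2 experiments cannot be told apart here. The siControl and MYC libraries also served as the controls of the UPF1 comparisons, so the 3 sets of values are not independent. The same step was seen in the order of the groups. SQLE, located on GRCh37 at chr8:126010739-126034525, and LSS, SREBF2, INSIG1 and FDFT1 were higher in every plasmid library than in every siRNA library. The share of all genes with such a split was not computed. In MYC against siControl alone, 25.6% of all genes were higher and 41.3% lower without overlap. For LSS the margin was thin, at 39.1 FPKM in MYC-UPF1 replicate 2 and 38.6 FPKM in siUPF1 replicate 2. For SQLE the neighbours siUPF1 and siControl overlapped, as did MYC and MYC-UPF1. For SREBF2 the only neighbours that overlapped were MYC-UPF1 and MYC, and for LSS the only ones were siControl and siUPF1. In IDI1 siControl stood above the other 3 groups, which overlapped in turn, and in HMGCS1 all neighbours overlapped. The sum of the fibroblast markers moved with this step as well, from 1.24 to 1.44 FPKM in siControl to 1.86 to 1.88 FPKM in MYC. It is a sum of 3 genes near the floor, of which 2 were under 1 FPKM in all 8 libraries. PDGFRB, the third, was at 0.569 to 1.07 FPKM. The part of this sum in the result was not tested.

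The GC content of the transcripts moved with these differences. SREBF2 and LSS have GC-rich transcripts, at 58.5% and 58.1%, and HMGCS1 and IDI1 AT-rich ones, at 39.0% and 41.1%, around a median of 48.1% for all genes. SQLE at 46.5%, FDFT1 at 47.0% and INSIG1 at 44.8% lie near the middle. Within siUPF1, SREBF2 and LSS were higher in replicate 2 than in replicate 1, by 0.084 and 0.15 on the log2 scale, whereas HMGCS1 was lower by 0.17 and IDI1 by 0.24. The MYC libraries differed in the same way, with SREBF2 and LSS higher by 0.16 each and IDI1 lower by 0.19. The MYC-UPF1 libraries differed in the opposite way, with SREBF2 and LSS lower by 0.091 and HMGCS1 higher by 0.18. Over 12735 genes the Spearman correlation of the difference, replicate 1 minus replicate 2, with GC content was -0.60 in siUPF1, -0.70 in MYC, 0.64 in MYC-UPF1 and 0.014 in siControl. It describes these libraries, whose genes share a depth and a preparation and are no replicates.

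**Figure D3:**
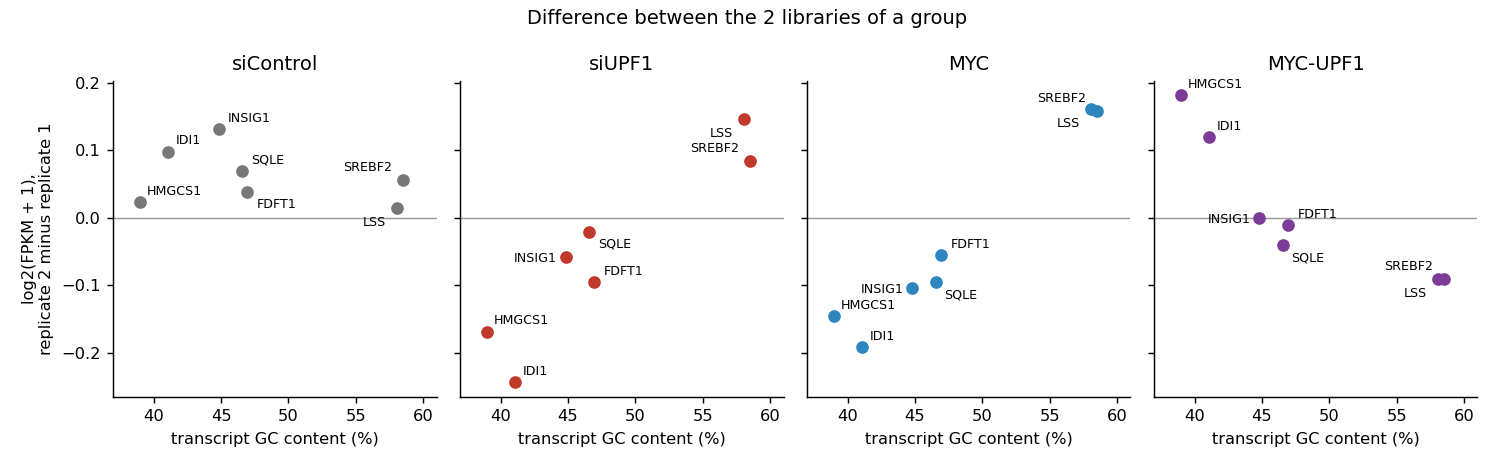
Difference between the 2 libraries of each group, replicate 2 minus replicate 1 in log2(FPKM + 1), for each gene against the GC content of its transcript in percent. SREBF2 and LSS at the GC-rich end and HMGCS1 and IDI1 at the AT-rich end lie on opposite sides of 0 in siUPF1, MYC and MYC-UPF1, with the sign turned in MYC-UPF1, while in siControl all 7 genes lie between 0.014 and 0.13.

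The fold changes between groups moved with GC content too, with a Spearman correlation over genes of 0.54 for depletion, -0.43 for overexpression and 0.57 for MYC against siControl. When the trend of each library with GC content and transcript length was removed, the difference between the 2 controls became 0.14 for SREBF2 (limma, unadjusted p = 0.0524), 0.10 for LSS (limma, unadjusted p = 0.125) and -0.14 for IDI1 (limma, unadjusted p = 0.0520), so that these 3 calls were lost. SQLE at 0.39 and INSIG1 at 0.33 stayed above the threshold (limma, unadjusted p = 0.000107 and unadjusted p = 0.000616), and FDFT1 at 0.20 and HMGCS1 at 0.15 came to pass it (limma, unadjusted p = 0.00747 and unadjusted p = 0.0233). Upon depletion, INSIG1 became -0.17 (limma, unadjusted p = 0.0602) and IDI1 -0.14 (limma, unadjusted p = 0.1195), and SREBF2 turned from 0.11 to -0.044. The difference of the 2 UPF1 effects on INSIG1 was -0.25 (limma, unadjusted p = 0.0196). Whether the GC content sets any of these differences was not tested.

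The rest of the pathway was followed in 52 further genes, of which 48 were in the tables and 46 were tested. CYP7A1, CYP8B1, ABCG5 and ABCG8 were not analysed here. Upon depletion 7 of the 46 rose and 3 fell at the unadjusted threshold in limma, shares near the 16.0% and 5.51% of all genes, and none passed the adjusted one. The 16 other synthesis enzymes gave 2 of these rises, also a share no higher than that of all genes, PMVK, which phosphorylates phosphomevalonate, at 0.46 ± 0.17 (limma, adjusted p = 0.190) and TM7SF2, a sterol reductase, at 0.26 (limma, unadjusted p = 0.0346), which became 0.094 with the GC trend removed. SOAT2, which esterifies cholesterol in hepatocytes, went from 9.33 to 13.7 FPKM (0.51 ± 0.094; limma, adjusted p = 0.0793), and NR1H3, the sterol receptor LXRα, from 9.95 to 12.5 FPKM (0.30 ± 0.11; limma, unadjusted p = 0.0325). INSIG2, the second SREBP anchor, fell like INSIG1, from 5.94 to 4.55 FPKM (-0.32 ± 0.11; limma, unadjusted p = 0.0243, adjusted p = 0.179), and was at -0.14 with the GC trend removed. In fatty acid synthesis ACSS2, which makes acetyl-CoA from acetate, rose by 0.35 and ME1, the NADPH-making malic enzyme, fell by 0.37 at the unadjusted threshold. The size of several of these changes moved with single libraries. Without the siControl replicate 1 PMVK was at 0.31, ACSS2 at 0.31 and NR1H3 at 0.26. Without the siControl replicate 2 INSIG2 was at -0.21, ME1 at -0.31 and NR1H3 at 0.33. Without the siUPF1 replicate 2 NR1H3 was at 0.17, PMVK at 0.24 and ME1 at -0.25. SOAT2 stayed at 0.45 to 0.57 whichever library was left out. Calls are not compared in these fits, because the group left with 1 library takes its spread from the other. NR1H3 lost its call with quantile normalization or median centring.

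Upon overexpression none of the 46 genes rose and 1 fell at the unadjusted threshold, beside 0.619% and 0.807% of all genes. It was DHCR7, the last reductase of the pathway, from 253 to 227 FPKM (-0.15 ± 0.068; limma, unadjusted p = 0.0487, adjusted p = 1.00). The call was lost without any one of the 4 libraries, where the fold change lay between -0.18 and -0.13. Between the controls, 22 of the 46 genes were higher in MYC and 4 lower at the adjusted threshold, beside 10.8% and 18.3% of all genes. INSIG2 was lower, at 4.01 against 5.94 FPKM (-0.47; limma, adjusted p = 0.00720), but at -0.21 and past the unadjusted threshold alone with the GC trend removed.

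Fatty acid synthesis, which SREBP1 more than SREBP2 controls, was higher in MYC in most of its genes. Of its 9 genes 7 rose and 1 fell at the adjusted threshold, beside 10.8% and 18.3% of all genes. The median log2 fold change of the 9 genes was 0.47, against 0.22 for the 7 cholesterol genes, a difference that was not tested. The desaturase FADS2 was at 515 FPKM in MYC and 203 FPKM in siControl (1.34 ± 0.076), the desaturase SCD at 718 against 368 FPKM (0.96 ± 0.072), FADS1 at 102 against 53.2 FPKM (0.92 ± 0.090), and the synthase FASN at 221 against 126 FPKM (0.79 ± 0.11). ME1 was lower, at 17.6 against 29.2 FPKM (-0.70 ± 0.10). All 5 had adjusted p-values of at most 7.82e-05 in limma. With the GC trend removed FADS2 stayed at 1.14, SCD at 0.95 and FADS1 at 0.87, while FASN came to 0.29.

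**Figure D4:**
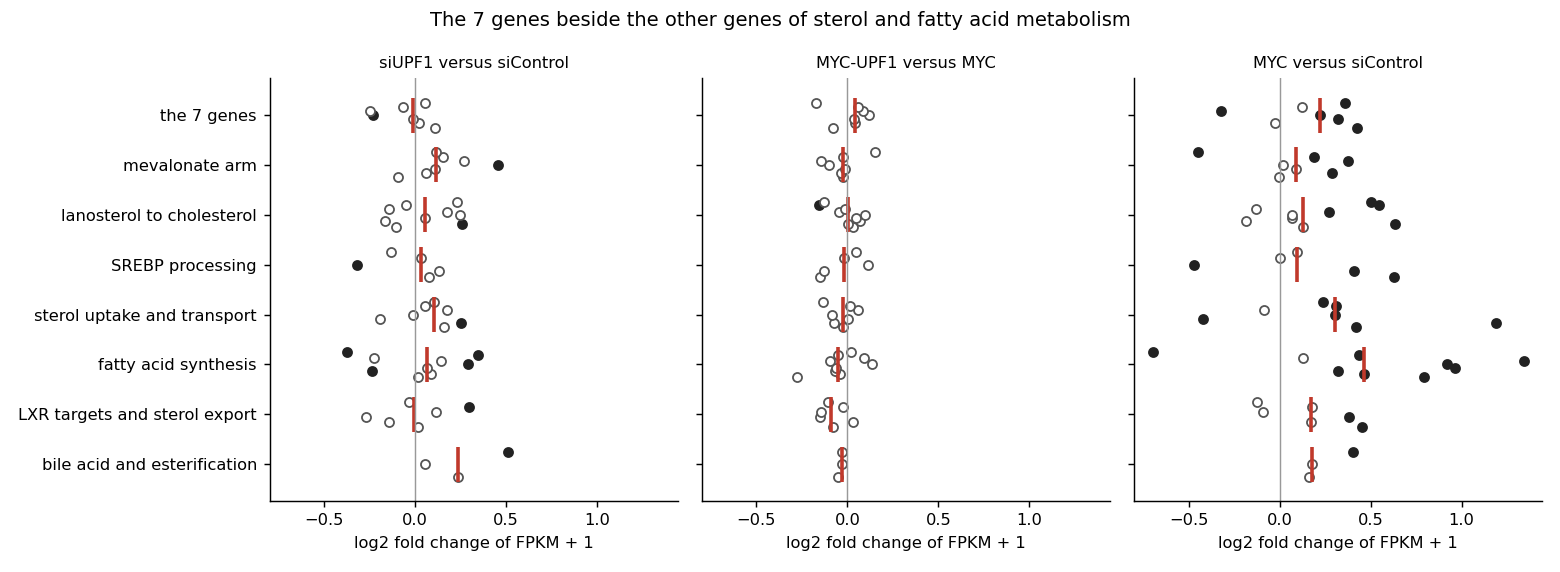
Log2 fold change of FPKM + 1 of the 7 genes and of 46 other genes of sterol and fatty acid metabolism by list, in the 3 comparisons, with filled points for an unadjusted limma p under 0.05, open points otherwise and a red bar for the median of each list. In MYC against siControl the medians of all lists are above 0 and fatty acid synthesis, at 0.47, has the highest, whereas upon overexpression 1 point is filled.

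Across the 8 libraries the 7 genes did not share a single pattern. Each gene's log2(FPKM + 1) was set against the mean of the 7, each centred and scaled, which was lowest in siUPF1 replicate 2 and highest in MYC-UPF1 replicate 2. FDFT1 had a Pearson correlation of 0.98 with this mean, INSIG1 0.96, SQLE 0.95, SREBF2 0.73, LSS 0.59, HMGCS1 0.19 and IDI1 -0.17. These values describe 8 libraries of 4 groups, and each gene is part of the mean. Among 7753 genes with a mean of at least 5 FPKM, the genes outside the lists most like the mean were CALU at 0.983, LAPTM4B at 0.982, LRIG3 at 0.980, PCOLCE2 at 0.979 and LOX at 0.979. CALU was at 83.5 and 94.3 FPKM in siControl, 90.0 and 80.3 FPKM in siUPF1, 106 and 99.1 FPKM in MYC and 108 and 110 FPKM in MYC-UPF1. Of the listed genes DHCR7, CYP51A1, SCD and ABCA1 had correlations between 0.905 and 0.915. Over the 7 genes, the MYC replicate 1 lay closer to either MYC-UPF1 library, with mean differences of 0.057 and 0.060 on the log2 scale, than to the MYC replicate 2, with 0.13.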

How the data were processed

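RNA-seq of Huh7 cells in 4 groups of 2 libraries was analysed. Per the labels, TruSeq stranded mRNA libraries were made from total RNA. The authors trimmed reads, aligned them to hg19 with HISAT 2.1.0, used StringTie 1.3.4d with NCBI annotation, and deposited FPKM per gene and library for 17076 genes. The submitters' processing notes also name FastQC 0.11.7 and Trimmomatic 0.38. How genes were chosen for the tables is not given in the sources used here. The files hold no counts, so depth and counting error are unknown and no count model was run. Summed FPKM ranged from 403902 to 455592.

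Genes with a mean of at least 0.5 FPKM over the libraries of a comparison were tested with limma 3.58.1 in R 4.3.3 (lmFit, eBayes with a trend) on log2(FPKM + 1), with Benjamini-Hochberg adjustment over all genes tested. A pseudocount of 1 understates changes of low genes. The 7 genes and all lists were chosen with earlier results of these data known. Named were the 7 genes, up to 6 listed genes per comparison with the largest fold change among those at an unadjusted p of 0.05 without overlap, listed genes with a role in the text, and the 5 genes most like the mean of the 7. Some listed genes are counted but not reported here by name. Transcript GC content and length came from GENCODE on GRCh37 (55 of the 59 listed genes). The method was tested on simulated data. Alternatives were a pseudocount of 0.1, no FPKM minimum or one of 5, quantile normalization, median centring, removal of the GC and length trend (loess, span 0.5), all 8 libraries in 1 fit, a replicate block, eBayes without the trend and each library left out. With 1 library left in a group, its spread was taken from the other group. Python 3.11.15 with pandas 2.3.3, scipy 1.17.1 and matplotlib 3.10.9 was used. Other experiments of the study were not analysed here.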

Additional observations from a re-analysis of the deposited data

How the results depend on the processing

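With 2 libraries per group and no counts, small changes are not separable from the spread between libraries, and a missed threshold does not show that a gene did not change. Adjusted calls over all genes upon depletion ranged from 0 to 476 when all libraries were kept, against 5, from 1 to 32 against 1 upon overexpression, from 1 to 159 against 3 for the difference of the effects and from 1310 to 4753 against 3883 between the controls. Unadjusted calls over all genes, with all libraries kept, ranged from 1862 to 3102 against 2908 upon depletion and from 49 to 1227 against 189 upon overexpression. They ranged from 1282 to 2310 against 2041 for the difference of the effects and from 3514 to 5919 against 5468 between the controls. For depletion, the count of the 7 genes at an unadjusted p of 0.05 was 1, and became 2 with a minimum of 5 FPKM, quantile normalization, median centring or all 8 libraries in 1 fit, and 0 with the GC and length trend removed, a replicate block or eBayes without the trend. It ranged from 0 to 2 with a library left out, from 0 to 1 at the adjusted threshold, and from 3 to 27 against 10 for the other listed genes. For overexpression, the other listed genes gave 1 call, 2 with quantile normalization or the GC and length trend removed, 0 with median centring, all 8 libraries or eBayes without the trend, and 0 to 4 with a library left out, where the 7 genes gave 0 to 1. For MYC against siControl, 4 of the 7 genes passed the adjusted threshold, and 1 with no FPKM minimum. The difference of the effects gave 1 call, and 2 with quantile normalization or median centring.

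Same-numbered libraries did not deviate together (correlations of -0.12 for siControl and siUPF1, -0.57 for MYC and MYC-UPF1 and 0.0098 for siControl and MYC over 13412 genes), so no pairing by number was assumed. In MYC and MYC-UPF1 they deviated in opposite ways. Over these genes MYC replicate 1 lay closest to MYC-UPF1 replicate 2, with a mean log2 difference of 0.094. MYC replicate 2 lay closest to MYC-UPF1 replicate 1, with 0.11, while the 2 MYC libraries differed by 0.16. Whether the libraries are paired in this crossed way is not given in the sources used here. With the replicate block, 5 of the 7 genes passed the adjusted threshold in MYC against siControl and 0 in the UPF1 comparisons, and at the unadjusted threshold the call of INSIG1 upon depletion was the only one of the 7 genes it changed. Crossed pairing, added after the data were seen, gave 2 of the 7 genes upon depletion at an unadjusted p of 0.05, beside 3102 of all 13535 genes. Upon overexpression it gave 2 of the 7 genes and 9 other listed genes, beside 1227 of all 13251 genes.

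Signs turned in these cases, none with a call except HMGCS1 at 0.15 in MYC against siControl. With the GC and length trend removed, depletion gave -0.044 for SREBF2, 0.027 for SQLE and -0.089 for LSS, the difference of the effects -0.019 for SREBF2, 0.15 for HMGCS1 and 0.020 for SQLE, and MYC against siControl 0.15 for HMGCS1. HMGCS1 was at -0.016 upon depletion with median centring, and between the controls at 0.059 with it and 0.039 with quantile normalization. With a library left out, depletion ranged from -0.061 to 0.11 for HMGCS1, -0.046 to 0.024 for SQLE and -0.019 to 0.13 for LSS, overexpression from -0.048 to 0.13 for HMGCS1, -0.014 to 0.082 for SQLE and -0.011 to 0.18 for IDI1, MYC against siControl from -0.097 to 0.049 for HMGCS1, and the difference of the effects from -0.11 to 0.071 for HMGCS1 and -0.093 to 0.0026 for SQLE. The cause was not tested.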
